A study of Mus musculus with 16 samples.

Results

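Ligand-gated neurotransmitter receptor channels were described in mouse enterochromaffin (EC) cells, the gut-lining endocrine cells that make serotonin, and in the other epithelial cells around them. The genes were taken by symbol, whatever their level: subunits of the GABA-A receptor (Gabr), of the AMPA (Gria), kainate (Grik) and NMDA (Grin) glutamate receptors, of the nicotinic acetylcholine receptor (Chrn), of the serotonin 5-HT3 receptor (Htr3), of the glycine receptor (Glr) and of the ATP receptor (P2rx). The deposited table lists 55 such genes among its 20072, and 12 further symbols of the mouse annotation that match were not analysed here (Gabra5, Gabra6, Gabrp, Gabrr1, Gabrr3, Chrna4, Chrna6, Chrna9, Chrne and Glra1, and the antisense models Chrna1os and Grin1os). A total of 7 genes reached a mean of at least 5 FPKM (fragments for each kilobase of transcript, scaled by library) in any group: P2rx4, Gabra2, Gabrd, Grik4, Chrnb1, Gabre and Gabrb2. Another 20 had their highest group mean between 1 and 5, and 28 stayed under 1 in all 4 groups. The lowest highest-group mean above the line of 5 was 6.13 for Gabrb2, and the nearest below it among the genes reported by name was 4.00 for Chrnb4.

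All samples came from the small intestine of untreated mice of 8 to 16 weeks carrying Tph1-CFP, a reporter in which cyan fluorescent protein marks cells that use Tph1, the gene for the first enzyme of serotonin synthesis. The 4 groups were EC cells from crypts (crypt EC), the other epithelial cells from crypts (crypt epi), EC cells from villi (villus EC) and the other epithelial cells from villi (villus epi), with 4 libraries each and 5000 cells pooled per library. The epi groups hold many cell types at once, and the labels name no further allele or agent for any group. The labels do not tie libraries to single animals, so the p-values measure the spread between these libraries. The sum of 8 EC marker genes was 55328 to 59632 in crypt EC against 144 to 184 in crypt epi, and 50283 to 60317 in villus EC against 525 to 648 in villus epi, so both EC groups carried their label's markers.

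Receptors of these families are membrane pores that open when a transmitter binds. GABA-A and glycine receptors pass chloride, and each receptor joins several subunits around the pore, usually alpha, beta and either gamma or delta for GABA-A. Nicotinic and 5-HT3 receptors share that architecture but pass cations, and the glutamate and P2X receptors are separate cation-channel families. EC cells are excitable: depolarization opens calcium channels and releases serotonin, which reaches nerve endings in the gut wall. In nerve cells, delta-containing GABA-A receptors lie mostly outside synapses and respond to low GABA, and P2rx4 is found in many cell types outside the nervous system.

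Promoters are shown for 4 of the genes that the results turn on, to set the starts of EC-high genes beside that of P2rx4, which was lower in EC cells. Each is the RefSeq window (build GRCm38.p6) from 250 bases before to 50 after the gene's start, 5′ to 3′ on the gene's strand. Capitals mark a GC box, GGGCGG or its reverse complement CCGCCC, or a TATA box, TATAAA or TTTATA.
Gabra2 (chr5:71095800-71096099, minus strand): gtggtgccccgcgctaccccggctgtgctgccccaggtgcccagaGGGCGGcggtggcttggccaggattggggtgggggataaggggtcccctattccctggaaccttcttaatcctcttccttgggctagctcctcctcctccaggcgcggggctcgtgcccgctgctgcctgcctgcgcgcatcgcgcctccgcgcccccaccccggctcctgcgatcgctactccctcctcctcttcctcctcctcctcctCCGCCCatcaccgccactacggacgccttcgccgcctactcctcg
Grik4 (chr9:42944322-42944621, minus strand): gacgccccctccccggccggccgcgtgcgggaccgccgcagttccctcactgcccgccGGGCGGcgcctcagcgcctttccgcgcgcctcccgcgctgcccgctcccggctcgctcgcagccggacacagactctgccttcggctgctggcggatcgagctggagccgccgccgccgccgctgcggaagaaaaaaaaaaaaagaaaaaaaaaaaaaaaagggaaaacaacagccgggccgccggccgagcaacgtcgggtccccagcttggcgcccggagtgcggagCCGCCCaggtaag
Gabrb2 (the first of 3 windows, chr11:42420190-42420489, plus strand): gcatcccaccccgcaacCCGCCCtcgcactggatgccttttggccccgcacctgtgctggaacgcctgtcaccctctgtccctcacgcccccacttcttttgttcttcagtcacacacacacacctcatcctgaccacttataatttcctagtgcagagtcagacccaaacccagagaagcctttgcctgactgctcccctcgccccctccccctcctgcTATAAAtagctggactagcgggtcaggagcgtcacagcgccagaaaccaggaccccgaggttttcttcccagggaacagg
P2rx4 (chr5:122707294-122707593, plus strand): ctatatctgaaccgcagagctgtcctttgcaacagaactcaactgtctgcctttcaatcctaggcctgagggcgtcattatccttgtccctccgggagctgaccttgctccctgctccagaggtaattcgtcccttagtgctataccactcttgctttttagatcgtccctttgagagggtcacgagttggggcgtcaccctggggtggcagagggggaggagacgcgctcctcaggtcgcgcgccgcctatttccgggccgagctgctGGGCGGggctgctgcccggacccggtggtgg
The windows of Gabra2 and Grik4 hold 2 GC boxes each, those of Gabrb2 and P2rx4 hold 1 each, and the Gabrb2 window also holds a TATA box. The other Gabrb2 windows, not shown, hold neither. Over all 32851 RefSeq promoters of this length, 35.7% hold a GC box and 13.6% a TATA box on either strand. The E-box letters CAGCTG and CAGATG, the latter searched with its reverse complement CATCTG, are in none of the 4 windows shown and in 16.3% and 17.2% of all promoters. Other receptor genes higher in EC cells at both sites varied. CAGCTG is in the windows of Chrnb4 and P2rx6 and CAGATG in that of Grin3b, while those of Gabre, Chrnb2 and Grik5 hold neither. Base composition was 70.0% G and C in the windows of Gabra2 and Grik4, 59.0% in that of Gabrb2 and 60.3% in that of P2rx4, against a median of 52.7% over all promoters. A match describes letters in the window and was not tested as a binding site. Of the 55 genes, 38 had a RefSeq promoter entry.

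Values were compared as log2(FPKM + 1) with limma in 1 fit of all 16 libraries, with Benjamini-Hochberg adjustment over the 14089 genes tested, and called genes are those with an adjusted p under 0.05. Differences below are on that scale, which understates the change of genes at low values. Of the 55 genes, 22 passed the filter of at least 1 FPKM in at least 4 libraries; a gene can pass through 1 group where it is high, so counts over these 22 are descriptions. The read depth of the libraries is unknown from the deposited values. Columns summed to 731415 to 766491 in crypt EC, 1045160 to 1136983 in crypt epi, 805073 to 901567 in villus EC and 1190722 to 1415123 in villus epi. Replicate 2 of villus epi stood apart, with a mean correlation to its own group of 0.846 against at least 0.937 in its 3 companions, and it was the highest library of its group for 33 of the 55 genes (60.0%) and for 47.0% of all genes of the table. Mitochondrial genes took 10.9% to 14.9% of the column total in the other 3 villus epi libraries, 5.26% in replicate 2 and 2.23% to 4.32% in the other groups, and the part of this in the villus epi comparisons was not tested.

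**Figure D1:**
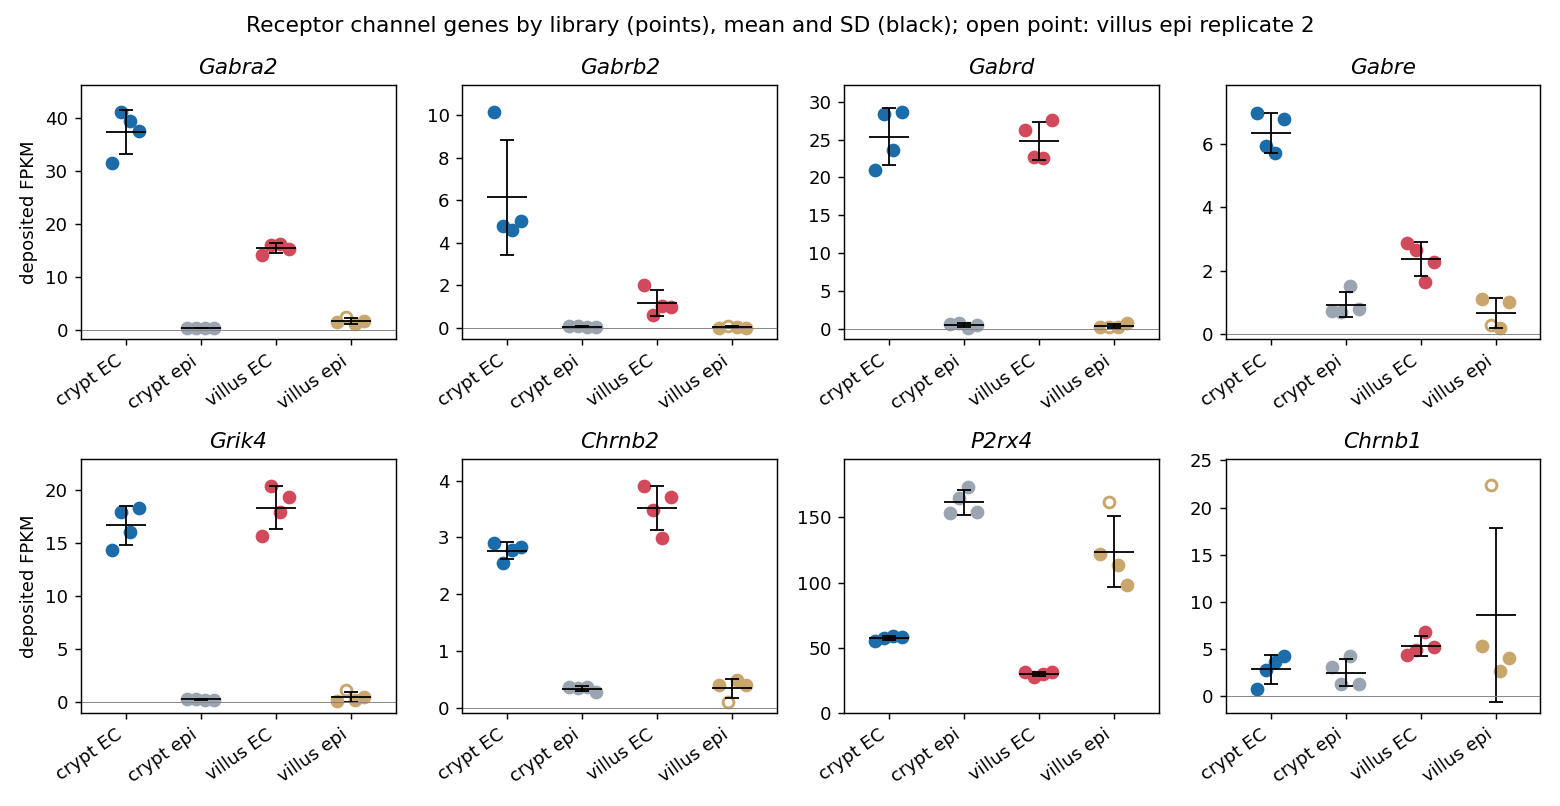
FPKM of 8 receptor genes in each of the 16 libraries, by group, with points for libraries and black marks for the group mean and SD; the open point is replicate 2 of villus epi. Gabra2, Gabrb2, Gabrd, Gabre, Grik4 and Chrnb2 lie higher in both EC groups than in the epi group of the same site, P2rx4 lies lower, and for Chrnb1 the EC and epi groups overlap at both sites, with the open point at 22.4.

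GABA-A receptor subunits had the highest summed level of any family in both EC groups. The 14 listed subunits summed to 85.6 ± 4.25 FPKM (SD, n = 4) in crypt EC and 54.9 ± 2.89 in villus EC, against 3.79 ± 0.32 in crypt epi and 7.66 ± 1.50 in villus epi. Gabra2 and Gabrd made up 43.7% and 29.6% of that sum in crypt EC. In villus EC the order was turned, with Gabrd at 45.1% and Gabra2 at 28.1%. Of the 8 subunits tested, 6 were higher in EC than in epi cells of the crypt and 5 in the villus, and 0 were lower. The background is wide, since 43.2% of all tested genes were called between EC and epi in the crypt and 62.2% in the villus. By direction, 23.2% were higher and 20.0% lower in the crypt, and 40.6% and 21.6% in the villus. In bulk libraries, a larger share of cells with a transcript and more of it per cell cannot be told apart.

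Gabra2 encodes an alpha subunit, part of the GABA-binding face (ENSMUSG00000000560; chromosome 5, 70957597 to 71095849, minus strand, mm10). The crypt EC libraries held 31.5, 41.2, 39.4 and 37.5 FPKM and the crypt epi libraries 0.321, 0.256, 0.302 and 0.385. The villus EC libraries held 14.2, 16.0, 16.1 and 15.3 and the villus epi libraries 1.54, 2.43, 1.15 and 1.65. No 2 groups overlapped: crypt EC was highest, then villus EC, then villus epi, and crypt epi was lowest. The gene was 4.86 ± 0.15 (log2 difference ± SE) higher in EC than in epi cells of the crypt, a 29.1-fold difference in FPKM + 1, with an adjusted p of 2.56e-12 in limma. In the villus the difference was 2.63 ± 0.15 (limma adjusted p = 7.42e-10). From crypt to villus it fell by 1.22 ± 0.15 in EC cells (limma adjusted p = 2.37e-05) and rose by 1.01 ± 0.15 in epi cells (limma adjusted p = 3.75e-05). The EC to epi difference was therefore smaller in the villus by a log2 difference of -2.23 ± 0.22 (limma interaction, adjusted p = 1.08e-06). With 0.1 in place of 1 added before the logarithm that interaction was -3.34 and with 5 it was -1.38.

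Gabrd encodes the delta subunit (ENSMUSG00000029054; chromosome 4, 155384980 to 155398112, minus strand). Its crypt EC libraries held 20.9, 28.3, 23.6 and 28.6 FPKM, its villus EC libraries 26.3, 22.7, 22.6 and 27.6, its crypt epi libraries 0.624, 0.715, 0.0569 and 0.489, and its villus epi libraries 0.286, 0.230, 0.207 and 0.762. Both EC groups lay above 20 and overlapped each other, and both epi groups lay under 1. Gabrd was higher in EC cells by 4.18 ± 0.19 in the crypt (limma adjusted p = 1.08e-10) and 4.25 ± 0.19 in the villus (limma adjusted p = 3.88e-11). Between villus and crypt EC the difference was -0.03, with a 95% interval of -0.43 to 0.37. It showed no called site difference in either cell type, and the interval of its own interaction ran from -0.49 to 0.63.

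Gabrb2 encodes a beta subunit, a kind needed to assemble most GABA-A receptors. It (ENSMUSG00000007653; chromosome 11, 42419757 to 42629028, plus strand) held 10.1, 4.78, 4.58 and 5.02 FPKM in crypt EC and 2.02, 0.622, 1.04 and 1.00 in villus EC. In the epi groups it lay at 0.0561 to 0.0818 in the crypt and at 0 to 0.118 in the villus, where 2 libraries were listed at 0. Crypt EC was above villus EC in every library, and both were above both epi groups. Gabrb2 was higher in EC cells by 2.67 ± 0.22 in the crypt (limma adjusted p = 8.29e-08) and by 1.03 ± 0.22 in the villus (limma adjusted p = 0.000674), and it fell by 1.69 ± 0.22 from crypt to villus EC (limma adjusted p = 2.97e-05). The interaction was -1.64 ± 0.31 (limma adjusted p = 0.000483). Gabrb1, also a beta subunit, stayed at or under a mean of 0.0567 in all groups.

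Gabre encodes the epsilon subunit (ENSMUSG00000031340; chromosome X, 72255999 to 72274803, minus strand). Crypt EC libraries held 6.97, 5.92, 5.69 and 6.77 FPKM, crypt epi 0.723, 0.704, 1.52 and 0.805, villus EC 2.87, 2.66, 1.65 and 2.27, and villus epi 1.12, 0.290, 0.215 and 1.00. EC and epi groups did not overlap at either site, and villus EC lay below crypt EC. The EC to epi difference was 1.94 ± 0.21 in the crypt (limma adjusted p = 1.84e-06) and 1.05 ± 0.21 in the villus (limma adjusted p = 0.000398). From crypt to villus EC it fell by 1.14 ± 0.21 (limma adjusted p = 0.000696). The interaction, -0.89 ± 0.29 with a limma adjusted p of 0.0234, lost its call with 0.1 added before the logarithm (adjusted p = 0.32) and without replicate 3 of villus EC (-0.78, adjusted p = 0.0525).

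Other GABA-A subunits reported by name were low. Gamma subunits, which anchor receptors at synapses, had means in crypt EC of 1.01 for Gabrg3 and 0.593 for Gabrg1, their highest, and neither passed the filter. With no filter, crypt EC exceeded crypt epi by 0.94 ± 0.13 for Gabrg3 (limma adjusted p = 5.5e-05) and 0.52 ± 0.09 for Gabrg1 (limma adjusted p = 0.000423). Gabrg3 held 0.873 to 1.27 in the crypt EC libraries and 0.0228 to 0.0589 in crypt epi. Gabrr2, a rho subunit, had group means from 1.14 to 3.60 and no called contrast, and Gabra3 also had none. Gabra4 and Gabrq stayed under 0.13 in every group mean.

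Among kainate receptor subunits, Grik4 made up most of the EC level. Grik4 encodes a high-affinity kainate subunit that needs a partner of the Grik1 to Grik3 kind to form a channel (ENSMUSG00000032017; chromosome 9, 42518135 to 42944493, minus strand). Crypt EC libraries held 14.4, 17.9, 16.1 and 18.3 FPKM and villus EC libraries 15.7, 20.4, 17.9 and 19.4. Crypt epi libraries held 0.349, 0.275, 0.232 and 0.236, and villus epi libraries 0.140, 1.16, 0.172 and 0.450. The EC groups overlapped each other and lay far above both epi groups. Grik4 was higher in EC cells by 3.79 ± 0.19 in the crypt (limma adjusted p = 3.12e-10) and 3.75 ± 0.19 in the villus (limma adjusted p = 1.48e-10), and villus and crypt EC differed by 0.13 with a 95% interval of -0.27 to 0.53. It made up 86.6% of the kainate sum in each EC group, where that sum was 19.2 ± 1.18 in the crypt and 21.2 ± 2.52 in the villus.

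The partners that Grik4 needs were low in EC cells. Grik1 and Grik3 had highest group means of 0.110 and 0.373. Grik2 had its highest group mean, 1.19, in villus epi, where replicate 2 alone held 3.12. The other high-affinity subunit, Grik5, had means of 1.71 ± 0.90 in crypt EC and 1.88 ± 0.85 in villus EC against 0.444 and 0.296 in the epi groups. It was higher in EC cells by 0.86 ± 0.24 in the crypt (limma adjusted p = 0.00789) and 1.14 ± 0.24 in the villus (limma adjusted p = 0.000601). Neto1, an auxiliary protein of kainate and NMDA receptors, was higher in EC cells too, with 12.1 to 16.5 FPKM in crypt EC and 6.88 to 9.10 in villus EC against means of 0.112 and 0.0743 in the epi groups.

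**Figure D2:**
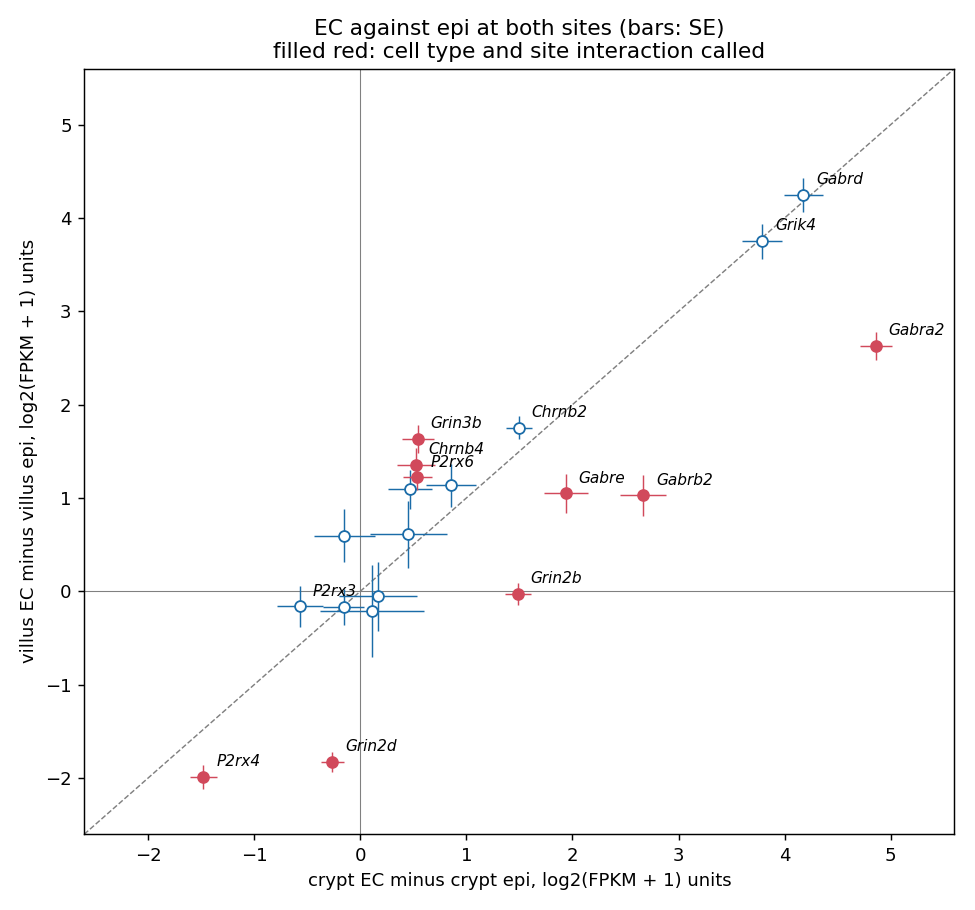
Log2 difference of EC against epi cells in the villus (y axis) against the same in the crypt (x axis) for 20 of the 22 receptor genes tested, each point 1 gene with bars of 1 SE and filled red points for a called interaction. Gabrd and Grik4 lie near the dashed line of equal difference, while Gabra2, Gabrb2 and Grin2b are larger in the crypt and Grin2d is negative in the villus.

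NMDA receptor subunits were low everywhere, and different subunits led in each group. The 7 listed subunits summed to 6.26 ± 1.44 FPKM in crypt EC and 3.70 ± 0.58 in villus EC, and to 2.51 ± 0.41 and 5.09 ± 0.69 in crypt and villus epi. Grin2b led in crypt EC with 31.1% of the sum, Grin1 in crypt epi with 71.3%, Grin3b in villus EC with 70.9% and Grin2d in villus epi with 53.7%. A working NMDA receptor needs Grin1, which is the obligatory subunit, together with Grin2 or Grin3 subunits.

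Grin2b, a glutamate-binding subunit, was highest in crypt EC. Crypt EC libraries held 1.47, 2.44, 1.97 and 1.91 FPKM, and no library of the other groups was above 0.278. In the crypt EC cells exceeded epi cells by 1.49 ± 0.12 (limma adjusted p = 6.58e-08), and Grin2b fell by 1.43 ± 0.12 from crypt to villus EC (limma adjusted p = 3.44e-07). The interaction was -1.51 ± 0.17 (limma adjusted p = 4.01e-06). Grin2b passed the filter only through its crypt EC libraries, so these p-values are descriptions. Grin2c lay in crypt EC as well, with 3.24, 1.61, 0.609 and 1.10 there and at most 0.302 in any other library. It did not pass the filter, and with none it was higher in EC than epi cells of the crypt by 1.28 ± 0.20 (limma adjusted p = 0.000141).

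Grin2d, another glutamate-binding subunit, was highest in villus epi. Villus epi libraries held 2.26, 3.15, 2.93 and 2.59 FPKM, crypt epi 0.254 to 0.390, crypt EC 0.0637 to 0.149 and villus EC 0.0305 to 0.0576. Grin2d passed the filter only through its villus epi libraries, so its p-values are descriptions. It was lower in EC than epi cells of the villus by a log2 difference of -1.83 ± 0.11 (limma adjusted p = 7.54e-10) and rose by 1.49 ± 0.11 from crypt to villus epi (limma adjusted p = 1.15e-08), with an interaction of -1.57 ± 0.15 (limma adjusted p = 1.03e-06). In the crypt the EC to epi difference of -0.26 ± 0.11 missed the threshold (limma adjusted p = 0.0591). It was called with 0.1 added (-1.08), with no filter (adjusted p = 0.0333), after median-ratio scaling (adjusted p = 0.0373) and with only the crypt groups fitted (adjusted p = 0.0438). Exons of Grin2d share 643 bases with the antisense model Gm45441 on the other strand, whose part in the Grin2d values was not tested. Grin2a was also highest in villus epi, with 1.47, 0.323, 2.22 and 1.45. It did not pass the filter, and with none its EC to epi difference in the villus was -0.99 ± 0.19 (limma adjusted p = 0.000393).

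Grin3b, a subunit that binds glycine, was highest in villus EC, where libraries held 3.07, 2.84, 2.34 and 2.25 FPKM. Crypt EC libraries held 0.321, 0.780, 0.964 and 0.848, and both epi groups stayed under 0.36. It was higher in EC cells by 0.55 ± 0.15 in the crypt (limma adjusted p = 0.00782) and by 1.64 ± 0.15 in the villus (limma adjusted p = 1.32e-07), and rose by 1.08 ± 0.15 from crypt to villus EC (limma adjusted p = 6.3e-05). Its interaction was 1.09 ± 0.21 (limma adjusted p = 0.000677). Grin3b passed the filter only through its villus EC libraries, so these p-values are descriptions. Exons of Grin3b share 1059 bases with exons of Tmem259 on the other strand; Tmem259 had means of 3.52 and 4.54 in the EC groups of crypt and villus and 3.46 and 12.1 in their epi groups, and its part in the Grin3b values was not tested.

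Grin1 had means of 1.59 ± 0.82 in crypt EC and 0.408 ± 0.17 in villus EC, and 1.79 ± 0.32 and 0.580 ± 0.23 in crypt and villus epi. No EC to epi difference was called at either site. From crypt to villus it fell by 0.84 ± 0.19 in EC cells (limma adjusted p = 0.00426) and by 0.83 ± 0.19 in epi cells (limma adjusted p = 0.00186). Exons of Grin1 share 1307 bases with the antisense model Grin1os on the other strand, whose part in the Grin1 values was not tested. Grin3a stayed at or under a mean of 0.246. AMPA receptors, the fast glutamate receptors of synapses, had group means of at most 0.708 for all 4 subunits, and none passed the filter. With no filter, Gria3 was higher in crypt EC than crypt epi by 0.62 ± 0.15 (limma adjusted p = 0.00432). Villus EC against villus epi was -0.45 ± 0.15 for Gria2 in that fit (limma adjusted p = 0.0264).

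Nicotinic acetylcholine receptor subunits were spread over several genes at low values. The 12 listed subunits summed to 13.2 ± 1.12 FPKM in crypt EC and 15.6 ± 0.48 in villus EC, and to 7.05 ± 1.86 and 13.7 ± 12.6 in crypt and villus epi, the last with 32.4 in replicate 2. Chrnb1, a subunit of the muscle receptor (ENSMUSG00000041189; chromosome 11, 69784036 to 69795943, minus strand), held 0.743, 2.76, 3.61 and 4.27 in crypt EC and 3.15, 1.31, 4.30 and 1.30 in crypt epi. In villus EC it held 4.40, 4.92, 6.82 and 5.18, and in villus epi 5.30, 22.4, 2.73 and 4.06. The crypt groups overlapped each other, villus EC lay just above crypt EC, and villus epi reached the mean of 5 only through replicate 2 (8.62 with it, 4.03 without). No contrast was called; villus against crypt epi gave 1.14 ± 0.49 (limma adjusted p = 0.0625). That difference was called after median-ratio scaling (1.30, adjusted p = 0.029), without replicate 1 of crypt EC (1.14, adjusted p = 0.0491), without replicate 3 of crypt epi (1.37, adjusted p = 0.0435) and without replicate 3 of villus epi (1.46, adjusted p = 0.0239).

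Chrnb2 and Chrnb4 encode the beta subunits of neuronal receptors. Chrnb2 (ENSMUSG00000027950; chromosome 3, 89746195 to 89764632, minus strand) had means of 2.76 ± 0.15 in crypt EC and 3.52 ± 0.40 in villus EC against 0.334 and 0.343 in the epi groups, with no overlap. EC cells exceeded epi cells by 1.50 ± 0.13 in the crypt (limma adjusted p = 1.2e-07) and by 1.75 ± 0.13 in the villus (limma adjusted p = 7.56e-09). Its exons share 1365 bases with those of Adar on the other strand, which had means of 13.7 to 18.0 and no called contrast; its part was not tested. Chrnb4 (ENSMUSG00000035200; chromosome 9, 55028154 to 55048779, minus strand) had means of 4.00 ± 0.90 in crypt EC and 2.39 ± 0.45 in villus EC, and 2.45 ± 0.40 and 0.345 ± 0.32 in crypt and villus epi. Chrnb4 was higher in EC than epi cells of the villus by 1.35 ± 0.18 (limma adjusted p = 8.93e-06) and fell by 1.38 ± 0.18 from crypt to villus epi (limma adjusted p = 9.5e-06).

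The other Chrnb4 calls depended on single libraries or on the scale. In the crypt the EC to epi difference was 0.53 ± 0.18 (limma adjusted p = 0.0274), and it was 0.41 without replicate 1 of crypt EC (adjusted p = 0.0894) and lost its call without replicates 1, 2 or 4 of crypt epi too (adjusted p = 0.058 to 0.0737). From crypt to villus EC it was -0.56 ± 0.18 (limma adjusted p = 0.033), and the call was lost without replicates 1 or 3 of crypt EC or 1, 2 or 3 of villus EC (adjusted p = 0.0501 to 0.114). The interaction of 0.82 ± 0.26 (limma adjusted p = 0.0168) was lost with 5 added (adjusted p = 0.156) and with columns rescaled to an equal total (adjusted p = 0.072).

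Among alpha subunits, Chrna1, of the muscle receptor, was highest in villus EC at 2.40 ± 0.22 FPKM, against 0.995 in crypt EC, 0.421 in crypt epi and 0.664 in villus epi. Chrna1 was higher in EC than epi cells of the villus by 1.09 ± 0.21 (limma adjusted p = 0.000268) and rose by 0.79 ± 0.21 from crypt to villus EC (limma adjusted p = 0.00962). Its crypt difference of 0.47 ± 0.21 (limma adjusted p = 0.0833) was called without replicate 1 of crypt EC (0.62, adjusted p = 0.0255), and without replicate 2 of villus epi (0.47, adjusted p = 0.0094), as was its interaction without that library (0.86 against 0.63, adjusted p = 0.00221 against 0.0983). Chrna3 and Chrna5 lie next to Chrnb4 on chromosome 9, and their products pair with it in autonomic neurons. They had highest group means of 0.372 and 0.654 and did not pass the filter. With none, Chrna3 was higher in crypt EC than crypt epi by 0.28 ± 0.09 (limma adjusted p = 0.0186). Villus against crypt EC was -0.31 ± 0.09 for Chrna3 (limma adjusted p = 0.0182). Chrna7 stayed at or under 0.104.

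Among P2X receptors, opened by extracellular ATP, 1 of 4 tested was higher and 2 lower in EC cells of the crypt, and 1 was higher and 1 lower in the villus. Of all tested genes, 23.2% were called higher and 20.0% lower in the crypt, and 40.6% and 21.6% in the villus. P2rx4, the 1 P2X gene lower at both sites, made up 83.1% to 97.1% of the P2X sum in each group. P2rx4 (ENSMUSG00000029470; chromosome 5, 122707544 to 122729738, plus strand) held 55.5, 57.4, 58.8 and 58.0 FPKM in crypt EC and 153, 165, 173 and 155 in crypt epi. Villus EC libraries held 31.4, 27.5, 30.1 and 31.2 and villus epi libraries 122, 162, 114 and 98.4. Both EC groups lay below both epi groups, villus EC was the lowest, and the epi groups overlapped through replicate 2 of villus epi. P2rx4 was lower in EC cells, with log2 differences of -1.48 ± 0.13 in the crypt (limma adjusted p = 1.66e-07) and -1.99 ± 0.13 in the villus (limma adjusted p = 2.22e-09), and fell by 0.91 ± 0.13 from crypt to villus EC (limma adjusted p = 6.57e-05). Even so it had the highest mean of the 55 genes in all 4 groups, at 57.4 in crypt EC and 30.1 in villus EC, above 88.6% and 80.4% of the genes in the table. Gabra2 stood above 83.3% and 70.1% of genes in those groups.

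Smaller P2rx4 differences depended on the scaling. Between villus and crypt epi it was -0.40 ± 0.13 (limma adjusted p = 0.0139), but -0.22 after median-ratio scaling (adjusted p = 0.105), -0.70 with columns rescaled to an equal total (adjusted p = 0.00147), and -0.30 without replicate 4 of villus epi (adjusted p = 0.0502). The crypt EC to epi difference was -0.94 with columns rescaled to an equal total. The interaction of -0.51 ± 0.18 (limma adjusted p = 0.0325) lost its call without replicate 2, 3 or 4 of crypt EC, 1 or 4 of crypt epi, or 2 or 3 of villus EC (adjusted p = 0.0515 to 0.0663), and with rescaled columns (adjusted p = 0.155).

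P2rx7, the gene next to P2rx4, encodes a receptor of immune cells that opens at high ATP. It had means of 1.96 FPKM in crypt EC, 3.70 in villus EC and 2.32 and 2.42 in the crypt and villus epi groups, and no called contrast. P2rx3, a receptor of sensory nerves, was highest in crypt epi at 2.04 ± 0.20 and fell by 0.81 ± 0.22 from crypt to villus epi (limma adjusted p = 0.00509). Its crypt EC to epi difference of -0.57 ± 0.22 (limma adjusted p = 0.0448) lost the call in 13 alternative fits, among them those without replicate 2, 3 or 4 of crypt EC, any replicate of crypt epi, or replicate 2 or 3 of villus EC (adjusted p = 0.0527 to 0.124), and was -0.26 with rescaled columns (adjusted p = 0.307). P2rx6 was highest in villus EC at 1.53 ± 0.29, against 0.991 in crypt EC, 0.367 in crypt epi and 0.0850 in villus epi. EC cells exceeded epi cells by 0.54 ± 0.14 in the crypt (limma adjusted p = 0.00472) and 1.22 ± 0.14 in the villus (limma adjusted p = 1.35e-06).

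Some P2rx6 site differences moved across the threshold. Villus against crypt EC was 0.35 (limma adjusted p = 0.0789), and it was called without replicate 3 of villus EC (0.43, adjusted p = 0.0441) and without replicate 2 of villus epi (0.35, adjusted p = 0.0369). Villus against crypt epi was -0.33 (limma adjusted p = 0.0507), and it was called with 0.1 added (-1.49, adjusted p = 0.0046) and without replicate 2 of villus epi (-0.41, adjusted p = 0.0154), replicate 4 of crypt EC (adjusted p = 0.0495), replicate 4 of crypt epi (adjusted p = 0.043) or replicate 3 of villus EC (adjusted p = 0.0446). P2rx6 exons share 554 bases with those of Slc7a4, an abundant gene on the other strand with means of 49.1 and 69.5 in the EC groups of crypt and villus and 21.8 and 3.69 in their epi groups. Slc7a4 was itself called higher in EC cells at both sites (log2 differences 1.15 and 3.94), and its part in the P2rx6 values was not tested. P2rx3 shares 51 exon bases with Ssrp1 on the other strand, which had means of 19.4 to 106, also with its part not tested.

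The serotonin-gated and glycine receptors had no group mean of 1 or more. Htr3a and Htr3b, the subunits of the serotonin-gated channel, had highest group means of 0.0893 and 0.515 FPKM, and Htr3a was listed at 0 in all 4 crypt epi libraries. The 4 glycine receptor subunits had highest group means of 0.0928 to 0.732, the latter for Glrb, the shared beta subunit. None of these 6 genes passed the filter. With no filter, villus EC against villus epi was -0.34 ± 0.06 for Glra2 (limma adjusted p = 0.00026).

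**Figure D3:**
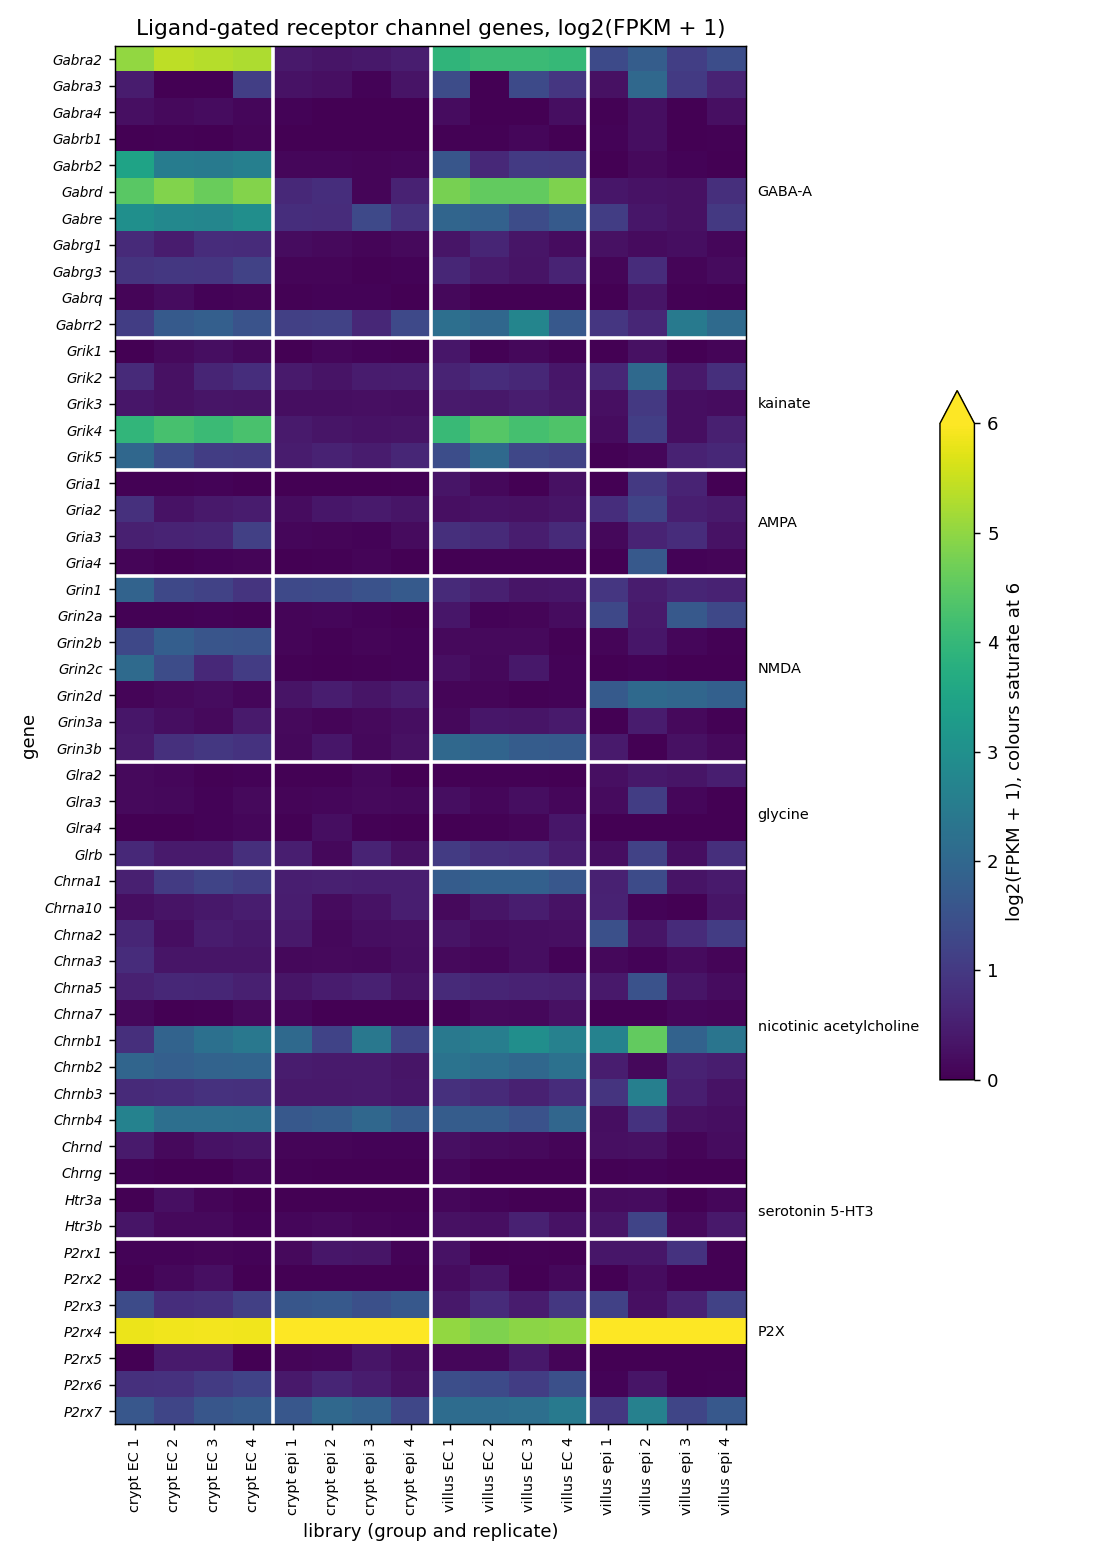
Log2(FPKM + 1) of 52 of the 55 receptor genes (rows, by family) in the 16 libraries (columns, by group). Colours saturate at 6. The EC columns stand out for Gabra2, Gabrd and Grik4, P2rx4 is bright in every column, and the AMPA, glycine and 5-HT3 rows are mostly dark.

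Over the 22 tested genes, 13 were higher and 2 lower in EC than epi cells of the crypt, with a median difference of 0.54, against 23.2% of all tested genes called higher, 20.0% called lower and a median of 0.05. In the villus 12 were higher and 2 lower with a median of 1.04, against 40.6%, 21.6% and a median of 0.33 over all genes. With no filter, 19 of all 55 were higher and 2 lower in the crypt. There 31.5% of the 20072 genes were called in either direction, 3541 higher and 2783 lower. In the villus 12 of the 55 were higher and 6 lower, where 46.7% of all genes were called, 6010 higher and 3356 lower. Among the genes reported by name, Gabra2, Gabrb2, Gabrd, Gabre, Grik4, Grik5, Chrnb2, Chrnb4, Grin3b and P2rx6 were called higher in EC cells at both sites, and P2rx4 was called lower at both.

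Between the sites, EC cells of the villus had 2 genes higher (Grin3b and Chrna1) and 8 lower (among them Gabra2, Gabrb2, Gabre, Grin2b, Grin1, Chrnb4 and P2rx4) than EC cells of the crypt, where 26.5% of all tested genes were called, 10.3% higher and 16.2% lower. Without replicate 2 of villus epi that share was 46.9%, and with only the EC groups fitted it was 47.3%. The median over the 22 was 0.04 and over all genes -0.05. In epi cells 2 were higher in the villus (Gabra2 and Grin2d) and 4 lower (Chrnb4, Grin1, P2rx3 and P2rx4), where 55.0% of all tested genes were called, 19.6% higher and 35.4% lower. The interaction of cell type and site was called for 10 of the 22, 3 positive (Grin3b, Chrnb4 and P2rx6) and 7 negative, where 42.9% of all tested genes were called, 26.9% positive and 16.0% negative.

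**Figure D4:**
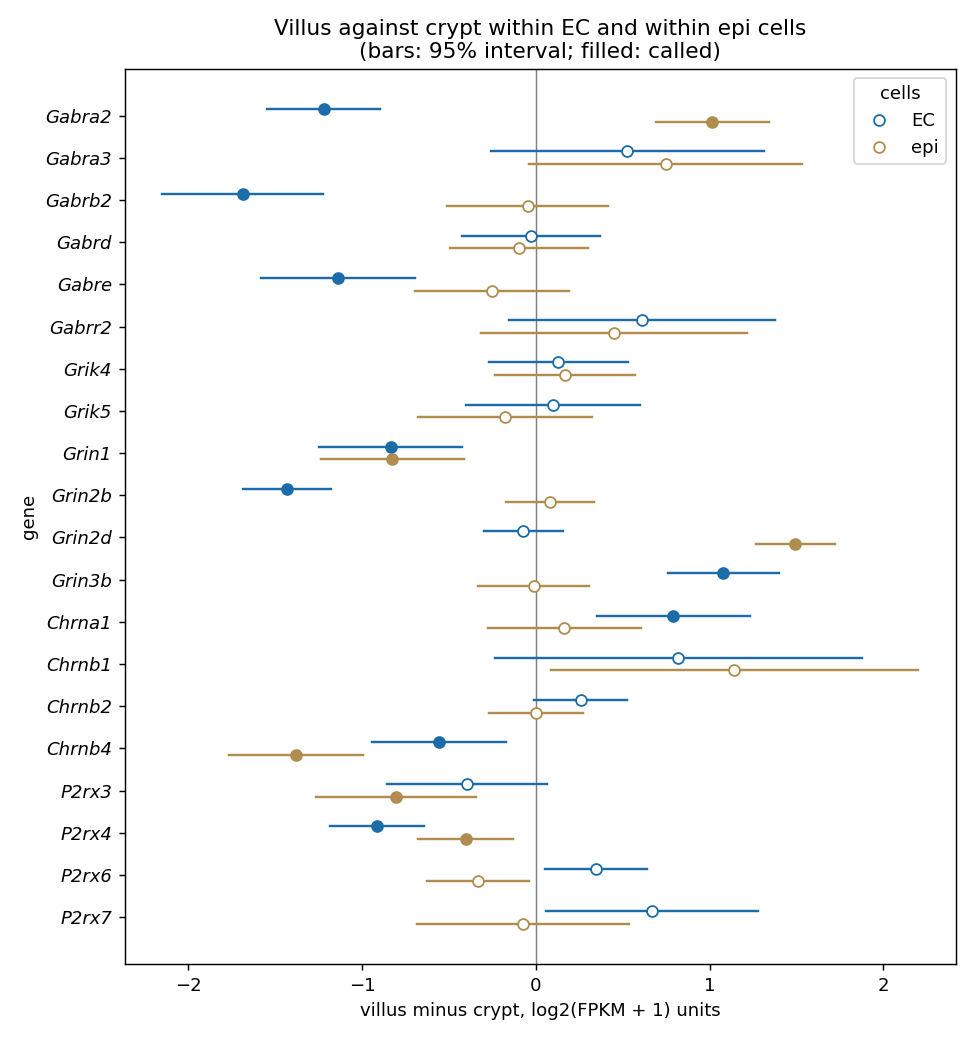
Log2 difference of villus against crypt in EC cells and in epi cells for 20 of the 22 receptor genes tested, with bars for the 95% interval and called differences filled. Gabrb2, Grin2b, Gabra2 and Gabre lie lowest in EC cells, and in epi cells Gabra2 and Grin2d are the called differences above 0, while Chrnb1, at 1.14 with an interval above 0, was not called.

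Gabra2 lies on chromosome 5 between Gabrg1 and Gabra4 with Gabrb1 beyond them, and in crypt EC these had means of 37.4 for Gabra2 against 0.593, 0.130 and 0.0237.

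Proteins that assemble, anchor or tune these channels gave values from a wider list. Of 32 tested, 14 were higher and 8 lower in EC than epi cells of the crypt, with a median of 0.39. In the villus 16 were higher and 7 lower, with a median of 0.54. The all-gene medians were 0.05 and 0.33. Over all tested genes, 23.2% were called higher and 20.0% lower in the crypt, and 40.6% and 21.6% in the villus. Ric3, a chaperone of nicotinic receptors, had means of 22.3 ± 0.99 FPKM in crypt EC and 26.3 ± 1.70 in villus EC against 1.75 and 1.25 in the epi groups. Lypd6 and Lypd1, membrane-tethered relatives of snake toxins that bind nicotinic receptors, were higher in EC cells at both sites. Lypd6 had means of 25.8 and 34.9 in crypt and villus EC against 1.62 and 2.17 in epi cells. Lypd1 had means of 14.2 and 5.64 against 0.286 and 0.776, and it fell by 1.24 ± 0.25 from crypt to villus EC (limma adjusted p = 0.00157). Agrn, also on the list, was lower in villus EC than villus epi, at 6.05 against 37.5 (log2 difference -2.44 ± 0.28, limma adjusted p = 1.77e-06). It was not called in the crypt (-0.71 ± 0.28, limma adjusted p = 0.054). Most genes named from this list were among the higher ones.

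Some partners of glutamate receptors were also high in EC cells. Olfm1, a secreted protein that binds AMPA receptor complexes, had means of 66.7 ± 5.42 FPKM in crypt EC and 165 in villus EC (149 to 179 by library) against 1.67 and 1.15 in the epi groups, and rose by 1.30 ± 0.23 between the EC groups (limma adjusted p = 0.00047). Shisa9, an AMPA receptor auxiliary protein, had means of 2.13 in crypt EC and 33.0 in villus EC, a rise of 3.49 ± 0.29 (limma adjusted p = 4.03e-07), while AMPA subunits themselves summed to 1.17 and 1.00 there. Dlg2, a synaptic scaffold, had means of 5.71 and 15.2 in the EC groups against 0.0907 and 0.365. For GABA-A receptors, Lhfpl4, a partner of gamma-containing receptors, was higher in EC cells at both sites (7.14 and 5.70 against 1.30 and 2.44). Gphn, the gephyrin scaffold, was not called in the crypt (14.7 against 14.8, a difference of -0.01 ± 0.18) and higher in EC than epi cells of the villus (13.3 against 2.85, a difference of 1.89 ± 0.18, limma adjusted p = 2.79e-07).

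Of 22 tested genes for making, loading, taking up or breaking down the transmitters, 6 were higher and 6 lower in EC than epi cells of the crypt. In the villus 9 were higher and 5 lower. Over all tested genes, 23.2% were called higher and 20.0% lower in the crypt, and 40.6% and 21.6% in the villus. Gad2, which makes GABA, had means of 1.76 FPKM in crypt EC and 4.48 in villus EC, and 1.39 and 0.587 in crypt and villus epi, and was called higher in EC cells of the villus by 1.92 ± 0.29 (limma adjusted p = 3.19e-05). Chat, which makes acetylcholine, had means of at most 0.194 and was not tested, and Ache, which breaks acetylcholine down, was higher in EC cells at both sites (9.68 and 4.44 against 3.00 and 0.344). Nt5e, which turns AMP into adenosine outside cells, had means of 97.4 ± 57.6 in crypt EC and 493 ± 18.3 in villus EC against 0.630 and 23.5 in epi cells. Entpd3, which splits extracellular ATP, had means of 13.3 in crypt EC and 1.94 in villus EC, a log2 difference of -2.31 ± 0.24 (limma adjusted p = 3.47e-06).

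Of 9 tested G protein-coupled receptors for the same transmitters, 4 were higher and 3 lower in EC cells of the crypt and 6 higher and 3 lower in the villus. Of all tested genes, 23.2% were higher and 20.0% lower in the crypt and 40.6% and 21.6% in the villus. The GABA-B subunit Gabbr1 had means of 10.3 ± 2.00 FPKM in crypt EC and 18.1 ± 0.86 in villus EC against 0.755 in crypt epi and 7.22 ± 13.3 in villus epi. The glutamate receptor Grm4 held 3.82 to 6.07 in crypt EC and at least 9.55 in villus EC against means of 0.519 and 0.325. Chrm3, a muscarinic acetylcholine receptor, was at 19.2 ± 8.78 in crypt EC and at 0.303 ± 0.17 in villus EC, a log2 difference of -3.86 ± 0.25 (limma adjusted p = 3.32e-08). P2ry1, which binds ADP, was lower in EC cells at both sites, at 4.54 and 2.45 against 32.0 and 37.2 in epi cells, the same direction as P2rx4. Of 10 tested pore subunits of voltage-gated sodium and calcium channels, 7 were higher and 0 lower in EC cells at each site, beside the same shares of all genes.

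Markers of nerve cells and glia moved with the EC groups. The sum over the 14 listed markers was 203 to 340 FPKM in crypt EC against 2.22 to 5.36 in crypt epi, and 784 to 842 in villus EC against 6.09 to 15.8 in villus epi, and 8 of 9 tested were higher in crypt EC than crypt epi. In the villus 6 of 9 were higher and 1 lower. Of all tested genes, 23.2% were called higher in the crypt, and 40.6% higher and 21.6% lower in the villus. Most of the nerve and glia marker sum was Snap25, with means of 264 and 718 in crypt and villus EC. Ret had means of 14.4 and 74.1 there against 0.388 and 0.713 in epi cells, Tubb3 5.09 and 7.39 against 0.296 and 0.260, Prph 2.197 and 6.94 against 0.0514 and 0.554, and Nefm 3.60 and 4.91 against 0.277 and 0.151. In every group, 6 of the 14 had means under 1, among them Elavl3 at 0.103 to 0.689. Markers of T cells summed to 3.08 to 4.94 in all groups but villus epi, where replicate 2 reached 30.5. Ptprc alone held 24.6 of that, with Cd3e at 0.663. Stromal markers summed to 20.8 to 37.1 in crypt EC and 16.4 to 24.9 in villus EC against 2.74 to 4.996 in crypt epi, and to 6.29 to 161 in villus epi, the highest in replicate 2. Most of the EC sum was Pecam1, with means of 20.9 and 16.7 against 0.887 in crypt epi and 7.27 in villus epi. In replicate 2 of villus epi, Dcn held 130, Pecam1 23.1 and Col1a1 1.93. B cell, plasma cell and myeloid markers summed to 15.4 to 50.9 and 12.1 to 32.1 in crypt and villus EC. In the epi groups they summed to 49.6 to 80.3 and 59.9 to 97.7. Cd14 and Lyz2 made up most of these sums, while Ms4a1, Cd79b and Jchain had higher means in EC cells at both sites. Tuft cell markers summed to 16.2 to 23.4 and 9.45 to 20.2 against 39.8 to 79.2 and 49.9 to 106. Goblet, Paneth and enterocyte sums were also lower in EC cells at both sites. Paneth markers summed to 6170 to 9379 in crypt EC against 188739 to 219434 in crypt epi. Hormone genes of other endocrine cells summed to 300 to 563 in crypt EC against 892 to 3053 in crypt epi. In the villus their sums overlapped, at 1025 to 4106 in EC cells against 871 to 2588 in epi cells. The tuft, goblet, Paneth and enterocyte sums thus differed in the same direction as P2rx4, while the nerve and stromal sums of crypt EC did not. Single members of these lists went the other way. In the villus 1 goblet and 1 Paneth marker were called higher in EC cells, and 5 and 4 lower. Agr2, a goblet marker, had means of 5039 in villus EC against 565 in villus epi, and Sis, an enterocyte marker, 600 against 521. The part of these cells in the receptor values was not tested.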

How the data were processed

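The authors deposited 1 table of gene-level FPKM values for 16 libraries. Per the labels' protocols, RNA was amplified as full-length cDNA with a SMART-Seq HT kit and tagged with Nextera XT. The submitters' processing notes name bcl2fastq 2.20, kallisto and sleuth with build mm10; the sources used here do not state the scaling between libraries or the annotation release. Values were used as deposited, 1 was added, and log2 values were fitted with limma 3.58.1 in R 4.3.3 (4 group means, eBayes with trend, no block), for genes at 1 or more in at least 4 of 16 libraries (14089 kept, 5983 left out). The tests were two-sided, with Benjamini-Hochberg adjustment per contrast over 5 contrasts. The fit was tested on simulated data. Positions came from GENCODE M21 and promoters from RefSeq.

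Receptor genes that reached a mean of 5 in any group are described library by library, those under it with a called contrast by their means, and the rest by counts and ranges. Library values of some genes under 5 were added after their values were seen. Of the 55 genes, 3 stay in the counts and sums but are not reported here by name. The receptor genes, the partner lists and the marker lists were chosen with earlier results of these data known. Alternatives covered the pseudocount (0.1 or 5), the filter, the scaling, the variance trend, the groups fitted, replicate blocks and leaving out each library. FPKM per length allows levels of different genes to be compared. Means are ± SD over 4 libraries, and differences ± SE.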

Additional observations from a re-analysis of the deposited data

Results flagged for a closer look

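The cut-off used flags about 1 group in 20 for independent, normally distributed values. The groups examined share libraries and many of their values are near 0, so an excess over chance was not tested. In 10 of 68 groups of 4 libraries examined (17 receptor genes in 4 groups), 1 library lay far from its companions. Of these, 4 were in replicate 2 of villus epi: Chrnb1 at 22.4 FPKM against 2.73 to 5.30 in the other 3, Chrna1 at 1.59 against 0.248 to 0.471, Chrnb4 at 0.830 against 0.165 to 0.208, and P2rx6 at 0.270 against 0 to 0.0457. That library also had the highest stromal and T cell marker sums of its group. Most of each sum was a single gene, Dcn at 130 and Ptprc at 24.6. Cd3e in that library was 0.663 against a group mean of 0.638, and Gzma was 0.270 against 0.934. Replicate 1 of crypt EC was high for Gabrb2, at 10.1 against 4.58 to 5.02, and for Chrnb4, at 5.35 against 3.47 to 3.60. The others were Chrna1 in crypt epi replicate 2 (0.447 against 0.411 to 0.413), Gabrd in villus epi replicate 4 (0.762 against 0.207 to 0.286), Gabre in crypt epi replicate 3 (1.52 against 0.704 to 0.805) and Grin2b in villus EC replicate 4, which was low (0.0196 against 0.103 to 0.117).

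For 9 of the 20 tested genes reported by name, the EC to epi difference itself differed between villus and crypt by limma's interaction test. Of all tested genes, 42.9% were called for the interaction. The villus minus crypt difference on the log2 scale was negative for Gabra2 (-2.23), Gabrb2 (-1.64), Grin2d (-1.57), Grin2b (-1.51), Gabre (-0.89) and P2rx4 (-0.51). It was positive for Grin3b (1.09), Chrnb4 (0.82) and P2rx6 (0.68). The P2rx4 interaction lost its call in 10 alternative fits, and those of Gabre and Chrnb4 in 3 each.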

How the results depend on the processing

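Of 55 called differences of the receptor genes, 42 kept their call under every alternative that tested them and none changed sign. The number of receptor genes called moved by over 1.5 times in these fits. With the filter at 5 in 4 libraries, where 6 were tested, it was 5 for EC against epi in the crypt and 5 in the villus. In that fit it was 3 for villus against crypt EC, 2 for villus against crypt epi and 3 for the interaction. With no filter it was 11 of 55 for villus against crypt epi and 17 for the interaction. With a replicate block by library number it was 6 in place of 10 for villus against crypt EC. Leaving out each library gave 12 to 16 calls in the crypt, 13 to 14 in the villus, 7 to 12 between EC groups, 4 to 7 between epi groups and 7 to 11 for the interaction. A pseudocount of 0.1 moved 35 of the 55 called values by over 1.5 times, 5 moved 49, and rescaled columns moved 4.

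Scaling moved the all-gene median from 0.05 to -0.09 (median-ratio) or 0.51 (columns at an equal total) for EC against epi in the crypt, from 0.33 to 0.10 or 0.80 in the villus, from -0.05 to 0.01 or -0.23 between EC groups and from -0.19 to -0.05 or -0.38 between epi groups. All-gene calls in the crypt then split 2715 higher to 3392 lower or 6109 to 1433, against 3264 to 2824; in the villus 7947 to 1901 with columns at an equal total, against 5724 to 3046. Between EC groups they split 1139 to 3503 with columns at an equal total, against 1454 to 2282, and between epi groups 1977 to 5974, against 2761 to 4994. Without replicate 2 of villus epi, 64.5% of all genes were called in the crypt and 74.9% in the villus, 67.3% between epi groups and 61.4% for the interaction.

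Numbers shared across groups did not pair the libraries: correlations of their deviations ran from -0.27 to 0.17 by title number (24 pairs) and from -0.27 to 0.14 by library number (10 pairs). A replicate block by title number gave 15, 14, 9, 6 and 9 calls in the 5 contrasts and lost 2 called differences. A block by library number gave 11, 15, 6, 5 and 7 and lost 12, so that villus against crypt EC had 6 in place of 10. Among the calls it ended were villus against crypt EC for Grin1 (adjusted p = 0.16), Gabre (0.0699), Chrna1 (0.0531) and Chrnb4 (0.365), the crypt EC to epi differences of Grik5 (0.0689) and Grin3b (0.101), and the Gabre interaction (0.167). Depth is unknown, so low values have no stated counting error.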
